A study of Homo sapiens with 8 samples.

Results

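Messenger RNA levels of 8 genes were followed in MEG-01, an established human megakaryoblastic leukaemia line: the homeobox genes HOXA3, HOXA5, HOXA6, HOXA7, HOXA9 and HOXA10 of the HOXA cluster, and the genes of their cofactors MEIS1 and PBX3. The 8 were taken by gene symbol from the 60754 genes of the deposited tables, and each matched 1 gene. Cells were given PMA (phorbol 12-myristate 13-acetate, a diacylglycerol mimic that turns on protein kinase C and pushes MEG-01 towards megakaryocytes) at 100 nM together with Ceefourin 2 (an inhibitor of the ABC transporter ABCC4) at 20 µM, PMA alone, Ceefourin 2 alone, or nothing. Treatments lasted 48 h, and no culture time is given for the untreated cells. For Ceefourin 2 without PMA the sources used here state no dose. Each of the 4 groups had 2 libraries, all from 1 cell line, and no vehicle is named for the untreated cells. Nothing in the labels says that the 2 libraries of a group came from separate cultures, so the p-values measure only the spread between these libraries.

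HOX genes encode homeodomain transcription factors that lie in 4 clusters, where the order of the genes along the chromosome goes with the order in which they are used along the body axis and, in blood, with stages of maturation. In blood, HOXA9 and its neighbours are active in stem and progenitor cells and are switched down as cells mature. Many acute leukaemias keep them on. MEIS and PBX proteins belong to the TALE class of homeodomain proteins and bind DNA together with HOX proteins. MEIS1 and PBX3 are the partners most often found with HOXA9 in leukaemia, and in mice Meis1 is needed for the megakaryocyte lineage.

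On GRCh38 the 6 HOXA members lay on the minus strand of chromosome 7, with HOXA3 at 27106184 to 27152581, HOXA5 at 27141052 to 27143668, HOXA6 at 27145396 to 27150603, HOXA7 at 27153716 to 27157936, HOXA9 at 27162435 to 27175180 and HOXA10 at 27170591 to 27180261 (GENCODE 29 gene bounds). MEIS1 lay on the plus strand of chromosome 2 at 66433452 to 66573869, and PBX3 on the plus strand of chromosome 9 at 125747345 to 125967377. All are protein-coding. The gene bounds of HOXA3 span HOXA4, HOXA5 and HOXA6 on the same strand, and those of HOXA9 overlap HOXA10, so reads from shared stretches could have been split between them. A protein-coding gene model that spans HOXA9 and HOXA10, ENSG00000257184, was given 0 counts in all 8 libraries. Antisense transcripts overlap every HOXA member. The kit keeps strand, and the counting setting is named only by the word stranded in the deposited tables.

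The promoters are shown because most of the members moved together. The 250 bases before the RefSeq start (GRCh38.p14) are printed 5′ to 3′ for the 2 HOXA members with the highest levels, HOXA9 (chr7:27165538-27165787, minus strand) and HOXA10 (chr7:27179862-27180111, minus strand), the upstream of its RefSeq starts, and for MEIS1 (chr2:66434875-66435124, plus strand) and PBX3 (chr9:125747933-125748182, plus strand). Capitals mark a match to TGATTTAN, a PBX-HOX motif, or to TGACAG, a MEIS motif, on either strand.
HOXA9: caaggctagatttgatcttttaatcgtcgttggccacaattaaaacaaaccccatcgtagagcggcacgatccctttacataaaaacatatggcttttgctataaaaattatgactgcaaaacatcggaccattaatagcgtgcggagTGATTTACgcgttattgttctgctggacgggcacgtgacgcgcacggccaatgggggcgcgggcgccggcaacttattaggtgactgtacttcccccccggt
HOXA10: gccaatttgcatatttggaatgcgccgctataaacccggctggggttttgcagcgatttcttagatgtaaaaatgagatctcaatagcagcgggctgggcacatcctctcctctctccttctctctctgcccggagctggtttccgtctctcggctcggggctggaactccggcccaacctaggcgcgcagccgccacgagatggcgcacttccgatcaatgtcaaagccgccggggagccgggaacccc
MEIS1: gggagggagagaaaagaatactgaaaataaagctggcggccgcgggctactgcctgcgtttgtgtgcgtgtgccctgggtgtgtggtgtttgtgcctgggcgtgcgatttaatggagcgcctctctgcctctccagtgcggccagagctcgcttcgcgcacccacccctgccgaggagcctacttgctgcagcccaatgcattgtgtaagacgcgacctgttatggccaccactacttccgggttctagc
PBX3: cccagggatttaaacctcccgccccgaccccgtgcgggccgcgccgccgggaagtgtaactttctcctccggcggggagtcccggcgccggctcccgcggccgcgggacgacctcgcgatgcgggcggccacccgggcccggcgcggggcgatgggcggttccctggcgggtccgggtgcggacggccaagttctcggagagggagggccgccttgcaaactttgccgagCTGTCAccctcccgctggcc
The HOXA9 window held 1 PBX-HOX match, TGATTTAC, starting 102 bases before the start, and the PBX3 window held 1 MEIS match, read on the other strand. The HOXA10 and MEIS1 windows held neither motif, nor the motif TGATNNAT. Over all 35116 RefSeq promoter windows of this length, 2.58% held TGATTTAN, 13.0% held TGACAG and 6.47% held TGATNNAT, so the matches are descriptions of these letters and not of binding. The GC content of the windows was 48.8% for HOXA9, 58.8% for HOXA10, 59.6% for MEIS1 and 75.6% for PBX3, against a median of 58.0% over all windows. RefSeq windows were found for 7 of the 8 members, all but HOXA5.

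The libraries held 44430292 to 89950886 expected counts. MEG-01 identity was checked against 14 megakaryocyte markers, of which 7 averaged at least 1 TPM (a level corrected for transcript length and library size) in untreated cells, with PF4 and VWF listed at 0. After PMA, all 13 tested markers rose, both with Ceefourin 2 (PMA plus Ceefourin 2 against Ceefourin 2) and without it (PMA against untreated). Of all tested genes, 28% and 27.9% rose in these comparisons. VWF and PPBP had at most 5 counts over the 2 libraries of either group without PMA. They passed the filter on low counts, given below, through the libraries with PMA. Once tested, they could hardly do other than rise. The summed level of the 14 markers was 1638 to 1724 TPM with PMA plus Ceefourin 2, 1610 to 1781 TPM with PMA, 760 to 861 TPM with Ceefourin 2 and 698 to 703 TPM in untreated cells. The sum of 11 erythroid markers was also high, at 26184 to 33242, 31750 to 38237, 4723 to 5085 and 9784 to 10710 TPM in the same order of groups, although 3 of them rose and 7 fell in PMA against untreated cells. Endothelial and stromal markers summed to 222 to 240, 207 to 252, 62.2 to 67.2 and 83.3 to 86.8 TPM in that order. Myeloid markers summed to between 24.9 and 59.4 TPM and lymphoid markers to at most 2.36 TPM in any library. Mitochondrial transcripts took 8.32% and 4.94% of counts in PMA plus Ceefourin 2 replicates 1 and 2, 9.61% and 4.53% in PMA, 2.77% and 3.12% in Ceefourin 2, and 2.55% and 3.94% in untreated cells. The part of these differences in the results below was not tested.

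In untreated cells HOXA9 was the highest of the members, at 69.6 and 51.9 TPM. HOXA10 followed at 19.0 and 18.0 TPM, HOXA7 at 9.45 and 8.22 TPM and PBX3 at 5.31 and 4.2 TPM. Neighbours in this order did not overlap between libraries down to PBX3. HOXA6, at 2.74 and 2.10 TPM, and HOXA5, at 2.33 and 1.90 TPM, overlapped each other, HOXA3 was at 0.37 and 0.11 TPM, and MEIS1 was listed at 0 in both libraries. The untreated line carried HOXA9 messenger RNA with no MEIS1 read, a pattern in which HOXA9, HOXA10 and HOXA7 made up most of the cluster. The 11 HOXA genes summed to 110 and 87.1 TPM, of which HOXA9 took 63.0% and 59.6%.

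**Figure D1:**
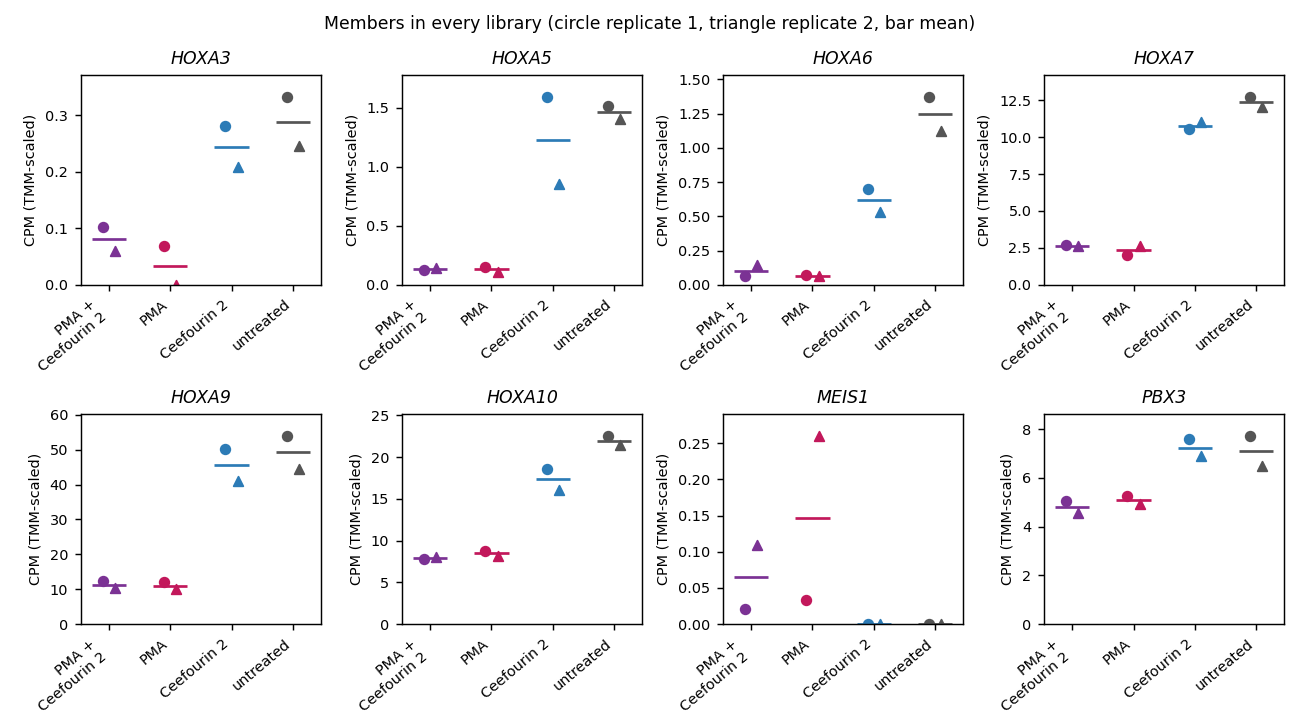
CPM (expected counts scaled to library size, TMM-scaled, linear axes from 0) of the 8 members in each library of the 4 groups, with circles for replicate 1, triangles for replicate 2 and bars for the mean of 2. The 6 HOXA genes and PBX3 are lower in all 4 libraries with PMA than in all 4 without it, and MEIS1 has reads in the libraries with PMA only.

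HOXA9, HOXA7, HOXA10 and PBX3, the members with enough counts to test in every group, fell with PMA, as did HOXA5, HOXA6 and HOXA3 from lower levels. The question here was what happened to the HOXA programme of a leukaemia line as it was driven towards megakaryocytes. HOXA9 fell 4.48-fold, HOXA7 5.32-fold, HOXA10 2.6-fold and PBX3 1.39-fold in PMA against untreated cells. The fall in HOXA5 was 10.9-fold, in HOXA6 18.2-fold and in HOXA3 7.31-fold. These 3 genes reached the filter on low counts (10 counts in a library of median size, or 0.172 CPM, in at least 2 libraries) in the groups without PMA and in no library with PMA, so once tested they could hardly do other than fall. MEIS1, whose reads lay in libraries with PMA, was removed by the same filter and is described apart. In bulk RNA, fewer cells that carry a transcript and less of it per cell cannot be told apart. Over all 17314 genes tested with edgeR's quasi-likelihood test, 53.6% were called in this comparison at an adjusted p below 0.05, 27.9% higher and 25.7% lower, beside 7 of 7 tested members lower. On the deposited TPM, limma gave 35% of its calls as higher, against 52.1% with edgeR. The libraries of the groups did not overlap for 77.9% of all tested genes. For the reason given, the count of members called is a description.

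HOXA9 encodes the factor best known for blocking maturation in acute myeloid leukaemia. It stood at 11.9 and 10.0 CPM (expected counts scaled to library size) in the PMA libraries and at 53.8 and 44.6 CPM in the untreated ones. The groups were well apart, and the log2 fold change was -2.16 (SE 0.17, edgeR adjusted p = 3.17e-05). HOXA10 is a factor of early myeloid and megakaryocytic progenitors. Its level was 8.75 and 8.17 CPM in PMA against 22.5 and 21.5 CPM in untreated cells. The log2 fold change was -1.38 (SE 0.12, edgeR adjusted p = 5.29e-05). The libraries of each group lay close together, and the 95% interval for HOXA10 (-1.65 to -1.10) did not reach that for HOXA9 (-2.55 to -1.77), although the difference between the 2 genes was not tested. HOXA7, another homeobox gene raised in leukaemias with rearranged KMT2A, had 2.03 and 2.64 CPM in PMA against 12.7 and 12.1 CPM in untreated cells. Its log2 fold change was -2.41 (SE 0.16, edgeR adjusted p = 1.53e-05).

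The remaining HOXA members were near 1 CPM or less in untreated cells and at a few counts per library with PMA. HOXA5, which in human progenitors favours myeloid over erythroid maturation, had 9 and 5 counts in the PMA libraries against 73 and 86 in the untreated ones (log2 fold change -3.44, SE 0.42, edgeR adjusted p = 0.00031). HOXA6 had 4 and 3 counts against 66 and 69 (log2 fold change -4.19, SE 0.46, edgeR adjusted p = 0.000184). Its fold change was the largest among the members, and its 95% interval (-5.26 to -3.11) included the estimate for HOXA5. HOXA3, a gene nearer the 3′ end of the cluster, had 4 and 0 counts against 16 and 15, which puts its level at 0.0339 ± 0.048 CPM in PMA and 0.289 ± 0.062 CPM in untreated cells (SD, n = 2 each). Its log2 fold change, -2.87 (SE 0.80, edgeR adjusted p = 0.0166), rested on few reads. It was no longer called without untreated replicate 1 (adjusted p = 0.064), without PMA replicate 2 (0.0513) or with limma on log2(TPM + 1) (0.0945), within a range of 0.00154 to 0.0945 over 16 alternatives.

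PBX3, the cofactor, had the smallest change. It stood at 5.27 and 4.95 CPM in PMA and at 7.71 and 6.50 CPM in untreated cells. The groups did not overlap, but the gap between them was about as wide as the gap between the 2 untreated libraries, and the log2 fold change was -0.47 (SE 0.15, edgeR adjusted p = 0.0297). The call was lost in 6 of 17 alternatives, where adjusted p ranged from 0.00518 to 0.189 over all 17. Among these, adjusted p was 0.189 without untreated replicate 1, 0.0812 without PMA replicate 1 and 0.128 without PMA replicate 2.

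The same comparison was repeated in the presence of the inhibitor, with libraries that the first did not use. In PMA plus Ceefourin 2 against Ceefourin 2, 6 of the 7 tested members fell and HOXA3 was not called, while 53.5% of all tested genes were called, 28% higher and 25.6% lower. On TPM, 32.9% of limma's calls were higher, against 52.2% of edgeR's. HOXA9 had 12.4 and 10.2 CPM with PMA plus Ceefourin 2 against 50.3 and 41.1 CPM with Ceefourin 2 (log2 fold change -2.02, SE 0.17, edgeR adjusted p = 4.41e-05). HOXA10 had 7.80 and 7.98 CPM against 18.6 and 16.1 CPM (log2 fold change -1.14, SE 0.12, edgeR adjusted p = 0.000138). Both genes were again several SE below their level without PMA, with no overlap between groups, as for 76.2% of all tested genes. HOXA7 had 2.66 and 2.61 CPM against 10.6 and 11 CPM (log2 fold change -2.03, SE 0.16, edgeR adjusted p = 3.19e-05).

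Among the low members, HOXA5 had 6 and 12 counts with PMA plus Ceefourin 2 against 102 and 53 with Ceefourin 2 (log2 fold change -3.15, SE 0.41, edgeR adjusted p = 0.000406). HOXA6 had 3 and 12 counts against 45 and 33 (log2 fold change -2.46, SE 0.42, edgeR adjusted p = 0.00172). Neither gene overlapped between groups on the CPM scale. HOXA3 had 5 and 5 counts against 18 and 13, and its log2 fold change was -1.64 (SE 0.68, 95% interval -3.21 to -0.06, edgeR adjusted p = 0.0754). PBX3 stood at 5.04 and 4.55 CPM against 7.59 and 6.91 CPM (log2 fold change -0.60, SE 0.15, edgeR adjusted p = 0.0106). Its call was lost without PMA plus Ceefourin 2 replicate 2 (adjusted p = 0.0695) and without Ceefourin 2 replicate 1 (0.0544), within a range of 0.00142 to 0.0695 over 17 alternatives. HOXA7, HOXA9 and HOXA10 were called lower in all 17 alternatives of both PMA comparisons. So were HOXA5 and HOXA6, but these reached the filter on low counts in no library with PMA, so their direction was close to set beforehand. The plot of fold changes sets both PMA comparisons beside those of Ceefourin 2.

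**Figure D2:**
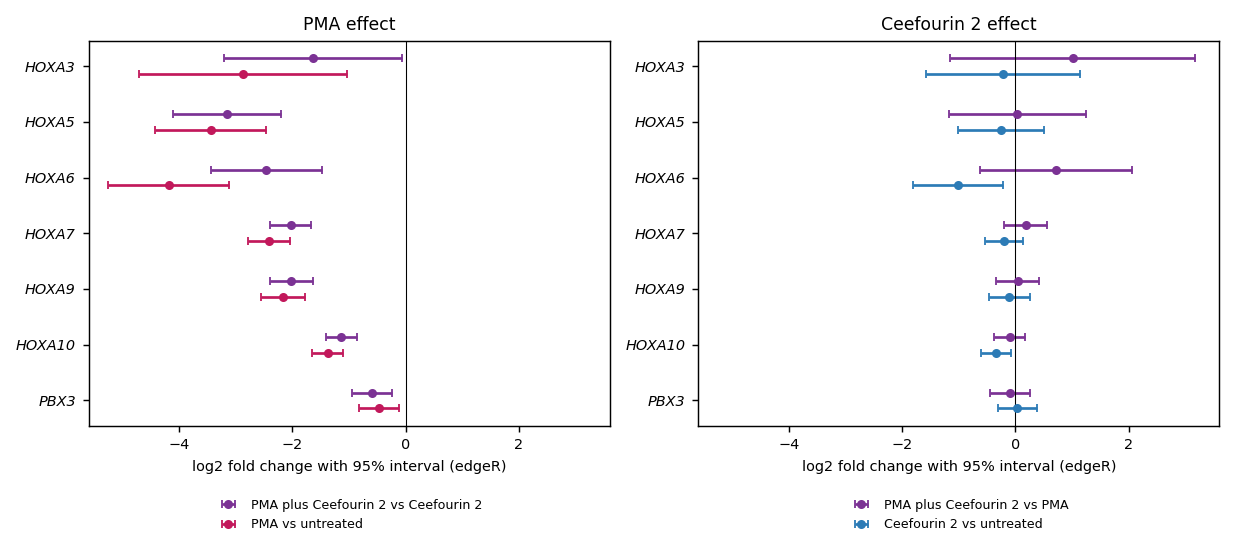
Log2 fold changes with 95% intervals from edgeR for the 7 tested members, with the 2 comparisons of PMA on the left and the 2 of Ceefourin 2 on the right. PMA estimates run from -4.19 (HOXA6) to -0.47 (PBX3) without the inhibitor and from -3.15 (HOXA5) to -0.60 (PBX3) with it, while most Ceefourin 2 intervals include 0.

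MEIS1 reads appeared only in cells given PMA, and rested on few reads that came mostly from replicate 2. It had 1 and 9 counts in replicates 1 and 2 of PMA plus Ceefourin 2 and 2 and 12 counts in those of PMA. No read was assigned to it in the 2 Ceefourin 2 or the 2 untreated libraries. The 12 counts of PMA replicate 2 have an exact 95% Poisson interval of 6.20 to 21.0, the 2 counts of replicate 1 one of 0.242 to 7.22, and a count of 0 one that ends at 3.69. An assumed floor of 3 counts over the 2 libraries of the group at 0 was used for a ratio. The observed level was 3.19-fold this floor with PMA plus Ceefourin 2 (floor in Ceefourin 2). With PMA it was 4.85-fold (floor in untreated cells). These ratios are not lower bounds: they leave out the counting error of the observed reads, and the floor lies under the limit of 3.69. Both ratios depend on replicate 2 of the PMA groups. Without it, PMA plus Ceefourin 2 had 0.0203 CPM against a floor of 0.0238 CPM, and PMA had 0.0339 CPM against 0.0274 CPM, on 1 and 2 counts, too few for a ratio. Without PMA plus Ceefourin 2 replicate 1 or PMA replicate 1 the ratios were 4.58-fold and 9.45-fold. With 1 library of the group at 0 left out they were 1.57-fold (without Ceefourin 2 replicate 1) and 1.62-fold (without replicate 2), and 2.71-fold (without untreated replicate 1) and 2.13-fold (without replicate 2).

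In TPM MEIS1 reached at most 0.21. When no filter on low counts was applied, so that 29960 genes were tested, edgeR called it higher both with the inhibitor (adjusted p = 0.0333) and without it (adjusted p = 0.00677). With 1 library left out as well, a choice made after seeing the data, adjusted p ranged from 0.0198 to 0.509 with the inhibitor and from 0.00228 to 0.372 without it. The call with the inhibitor was lost without PMA plus Ceefourin 2 replicate 2 (0.509), without either Ceefourin 2 library (0.154 and 0.144) and without PMA replicate 2 (0.0731). The call without the inhibitor was lost without PMA replicate 2 (0.372) and without untreated replicate 2 (0.0678). The Poisson intervals cover counting error only, and the ratios to the floor leave out that of the observed reads. The fit without a filter gave edgeR adjusted p on another scale. In PMA against untreated cells HOXA9 had 8.46e-45 there against 3.17e-05 with the filter, and PBX3 0.0638 against 0.0297. The adjusted p of MEIS1 cannot be set beside those of the other members.

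For Ceefourin 2, none of the 7 tested members was called, in PMA-treated or in other cells. In PMA plus Ceefourin 2 against PMA, edgeR adjusted p ran from 0.691 to 0.990, no member had an unadjusted p below 0.05 (13.7% of all tested genes did), DESeq2 called 0, and 1.83% of all tested genes were called, 0.918% higher and 0.913% lower. That is 317 genes, against 1482 with the replicate number as a block. HOXA9 differed by a log2 fold change of 0.04 (95% interval -0.35 to 0.42), HOXA7 by 0.18 (-0.20 to 0.55), PBX3 by -0.10 (-0.45 to 0.26) and HOXA10 by -0.10 (-0.38 to 0.18). For these 4 genes the intervals leave out changes as large as those seen with PMA in the HOXA genes. The intervals were wider for the rare transcripts HOXA3 (-1.15 to 3.17), HOXA5 (-1.18 to 1.24) and HOXA6 (-0.63 to 2.06). HOXA10 libraries did not overlap between these groups, as was so for 45.4% of all tested genes, at 7.80 and 7.98 CPM with PMA plus Ceefourin 2 against 8.75 and 8.17 CPM with PMA, but the difference was within the spread that the model estimated.

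In Ceefourin 2 against untreated cells no member was called either, beside 1.68% of all tested genes (0.959% higher, 0.722% lower), and DESeq2 also called 0. With the replicate number as a block, 1430 genes in place of 291 were called, and still no member. An unadjusted p below 0.05 was found for 2 of the 7 tested members, beside 13.6% of all tested genes, a count too small to set apart from that share. HOXA6 had 0.701 and 0.532 CPM with Ceefourin 2 against 1.37 and 1.13 CPM in untreated cells (log2 fold change -1.01, SE 0.34, edgeR adjusted p = 0.233). HOXA10 had 18.6 and 16.1 CPM against 22.5 and 21.5 CPM (log2 fold change -0.34, SE 0.12, edgeR adjusted p = 0.236). For these 2 genes and HOXA7 the libraries of the groups did not overlap, which is 3 of 7 members beside 40.7% of all tested genes, and none passed the threshold in any of 17 alternatives. Adjusted p ranged from 0.0697 to 0.559 for HOXA6 and from 0.0532 to 0.573 for HOXA10. HOXA9 differed by -0.11 (95% interval -0.47 to 0.26) and PBX3 by 0.03 (-0.31 to 0.38).

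Whether the inhibitor altered the response to PMA was tested as an interaction, the log2 fold change for Ceefourin 2 in PMA-treated cells less that in cells without PMA. No member was called, nor did DESeq2 call any, and 0.0116% of all tested genes were called, which is 2 genes, or 247 with the block. HOXA6 had the largest estimate, 1.72 (SE 0.68, edgeR adjusted p = 0.644), and was the 1 of 7 members with an unadjusted p below 0.05, beside 7.13% of all tested genes. For HOXA9 the estimate was 0.14 (95% interval -0.39 to 0.68), and for PBX3 it was -0.13 (-0.62 to 0.37).

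Transcripts of the cluster other than the members moved in both directions. HOTAIRM1, a long noncoding RNA of the cluster that is known to come on during myeloid maturation, rose by log2 2.01 without and 1.90 with the inhibitor. HOXA11 fell by 1.87 without and 1.64 with the inhibitor on the log2 scale, and HOXA10-AS, an antisense RNA overlapping HOXA9 and HOXA10, fell by 2.00 and 2.16. HOXA13 fell by 3.41 without the inhibitor (edgeR adjusted p = 0.0299) on 3 and 2 counts against 33 and 23, and was at -1.69 (edgeR adjusted p = 0.198) with it. HOXA13 reached the filter on low counts in no library with PMA, so once tested it could hardly do other than fall. HOXA2, HOXA4, HOXA-AS2, HOXA-AS3 and HOTTIP had too few counts to test.

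Genes outside the cluster moved in both directions. Towards lower coordinates SKAP2, an adaptor protein gene, rose by log2 0.94 and SNX10 fell by 1.23 in PMA against untreated cells. On the other side, beyond HOXA13, TAX1BP1 rose by 1.02 and JAZF1 fell by 0.44, HIBADH stood at -0.04 without a call, and EVX1, the homeobox gene next to HOXA13, had 0 counts in every library. Of 9 tested flanking genes 2 were higher and 4 lower, with a median of -0.04. The neighbours of MEIS1 (1 higher and 2 lower of 8) and those of PBX3 (2 higher and 3 lower of 8) had medians of -0.13 and 0.26. Around MEIS1, SPRED2 fell by 0.89 and ETAA1 by 0.78, and around PBX3, MVB12B fell by 1.49 and ZBTB34 rose by 0.76. Among all tested genes 27.9% were higher and 25.7% lower.

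**Figure D3:**
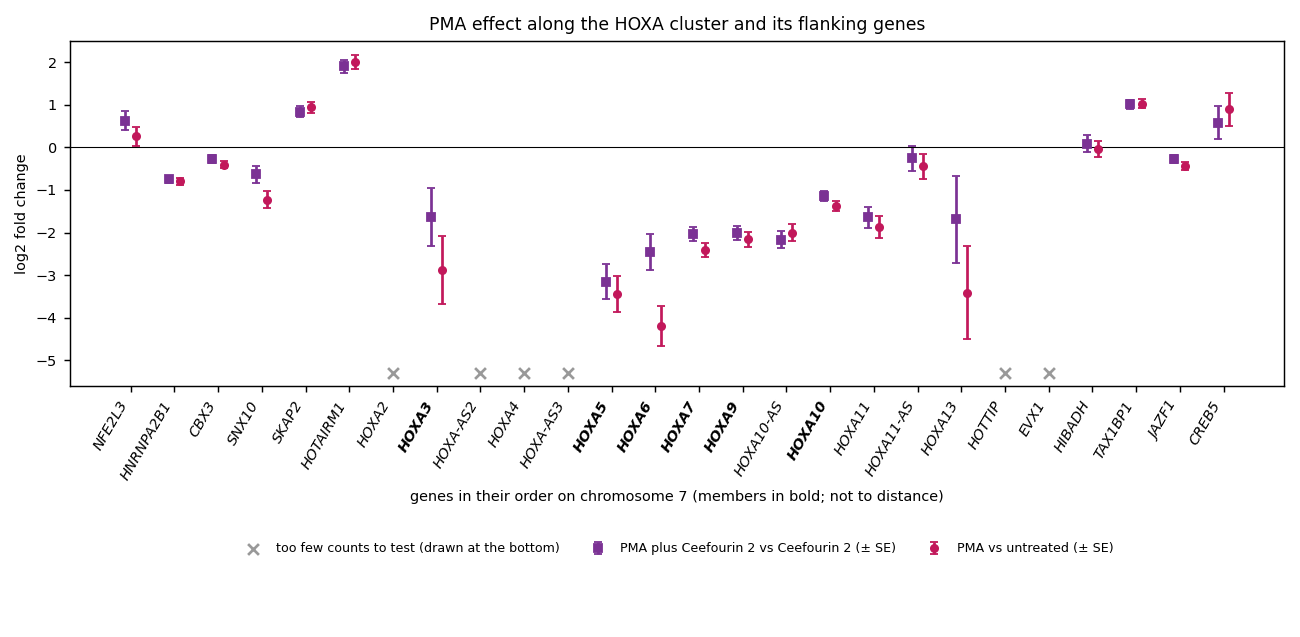
Log2 fold changes with SE from edgeR for genes of the HOXA cluster and its flanks, in their order on chromosome 7, with squares for PMA plus Ceefourin 2 against Ceefourin 2 and circles for PMA against untreated. HOTAIRM1 lies above 0, the members below 0, and crosses at the bottom mark genes with too few counts to test.

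Within the cluster the fall changed the mix as well as the amount. The 11 HOXA genes summed to 24.4 and 21.4 TPM with PMA plus Ceefourin 2, 23.7 and 21.7 TPM with PMA, 99.3 and 78.4 TPM with Ceefourin 2, and 110 and 87.1 TPM in untreated cells. HOXA9 took 53.2% and 45.1% of that sum with PMA plus Ceefourin 2 and 50.7% and 46.5% with PMA, against 66.1% and 63.0% with Ceefourin 2 and 63.0% and 59.6% in untreated cells. The share of HOXA9 was lower in all 4 libraries with PMA than in all 4 without it. The ratio of HOXA9 to HOXA10 TPM was 2.56 and 1.82 with PMA plus Ceefourin 2, 1.94 and 1.78 with PMA, 4.11 and 3.88 with Ceefourin 2, and 3.66 and 2.89 in untreated cells. These ratios did not overlap between libraries with and without PMA. In both PMA groups PBX3 stood above HOXA7, at 2.97 and 2.62 TPM against 1.60 and 1.51 TPM with PMA plus Ceefourin 2, whereas in the groups without PMA HOXA7 stood above PBX3.

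The HOXB cluster was the other HOX cluster with high levels in this line. Its summed TPM was also lower with PMA, though less so than that of the HOXA cluster. Its sum was at most 87.5 TPM in libraries with PMA and at least 99.7 TPM in those without it. Its 10 genes summed to 87.5 and 71.8 TPM with PMA plus Ceefourin 2, 72.1 and 63.2 TPM with PMA, 116 and 124 TPM with Ceefourin 2, and 100.2 and 99.7 TPM in untreated cells. The ratio of the HOXA to the HOXB sum was 0.279 and 0.298 with PMA plus Ceefourin 2, 0.328 and 0.344 with PMA, 0.854 and 0.632 with Ceefourin 2, and 1.10 and 0.874 in untreated cells. The libraries with PMA, at most 0.344, did not overlap those without it, at least 0.632. In PMA against untreated cells 2 of 7 tested HOXB genes fell, HOXB7 by log2 1.22 and HOXB4 by 0.45. That is 28.6%, beside 25.7% of all tested genes. The TPM sums carry no TMM scaling. On CPM with TMM scaling, HOXB3 averaged 17.5 in PMA against 16.9 in untreated cells, and HOXB6 4.35 against 4.09. A fall of the HOXB cluster as a whole is therefore not shown. HOXB2, the most abundant HOXB gene, was at 32.6 and 28.6 TPM against 38.2 and 45.7 TPM without a call (-0.22, SE 0.19, edgeR adjusted p = 0.368). Elsewhere HOXC4 fell by 2.16 and HOXD13 by 2.40.

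**Figure D4:**
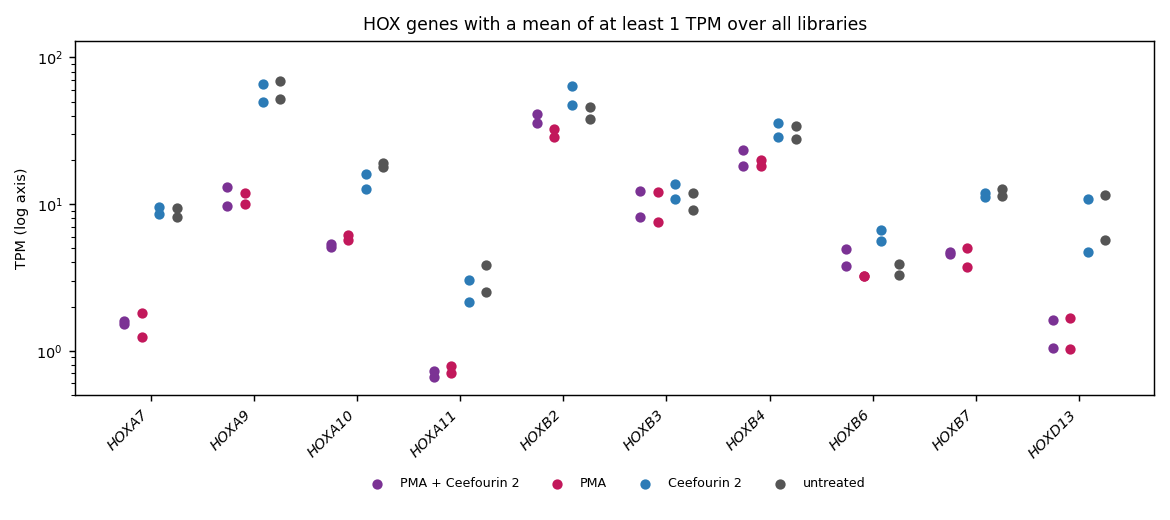
TPM on a log axis for 10 HOX genes with a mean of at least 1 TPM over all libraries, with 1 point per library in the 4 groups. HOXA7, HOXA9, HOXA10, HOXA11, HOXB4, HOXB7 and HOXD13 are lower in every library with PMA, and HOXB2, HOXB3 and HOXB6 overlap between groups.

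The other PBX and MEIS genes moved in both directions. PBX4, a PBX gene known from the testis of mice, had 22 and 26.5 TPM in PMA against 0.47 and 0.56 TPM in untreated cells (log2 fold change 5.58, SE 0.25, edgeR adjusted p = 2.81e-06). With the inhibitor it had 19.3 and 21.1 TPM with PMA plus Ceefourin 2 against 0.38 and 0.40 TPM with Ceefourin 2 (5.70, SE 0.25). PBX4 took 21.0% and 24.2% of summed PBX TPM with PMA plus Ceefourin 2 and 23.4% and 28.8% with PMA, against at most 1.10% in any library without PMA. PBX2, the most abundant PBX gene, rose by 0.59 and 0.73 on the log2 scale without and with the inhibitor. PBX3 took 3.22% and 3.0% of PBX TPM with PMA plus Ceefourin 2, 3.20% and 2.93% with PMA, 8.72% and 8.75% with Ceefourin 2, and 9.29% and 8.21% in untreated cells. PBX3 was a minor PBX transcript in all 4 groups.

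Among the MEIS genes, MEIS2 fell to 2.17 and 1.82 TPM in PMA, against 5.64 and 4.38 TPM in untreated cells (log2 fold change -1.03, SE 0.25, edgeR adjusted p = 0.00873). MEIS3 rose to 0.90 and 1.05 TPM, against 0.05 and 0.13 TPM (3.87, SE 0.51, edgeR adjusted p = 0.000437). It had 9 counts over the 2 libraries of each group without PMA, under the filter on low counts. Once tested, it could hardly do other than rise. With PMA plus Ceefourin 2 it stood at 2.5 and 2.63 TPM, against 0.07 and 0.12 TPM with Ceefourin 2, and made up 56.1% and 64.9% of MEIS TPM. MEIS1 made up at most 6.82% in any library. PBXIP1, which encodes a protein that binds PBX and blocks its contact with HOX partners, rose by log2 1.87 and 2.29 without and with the inhibitor. In all, 5 of 10 tested TALE genes outside the members were higher, MEIS3 among them, and 3 lower in PMA against untreated cells. With the inhibitor 5 were higher and 4 lower. PKNOX2, among the 10 tested, had 31 counts over the untreated libraries and 0 over those with PMA alone. It passed the filter on low counts through the untreated libraries. In PMA against untreated cells it could hardly do other than fall. Of all tested genes, 27.9% were higher and 25.7% lower without the inhibitor, and 28% and 25.6% with it.

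**Figure D5:**
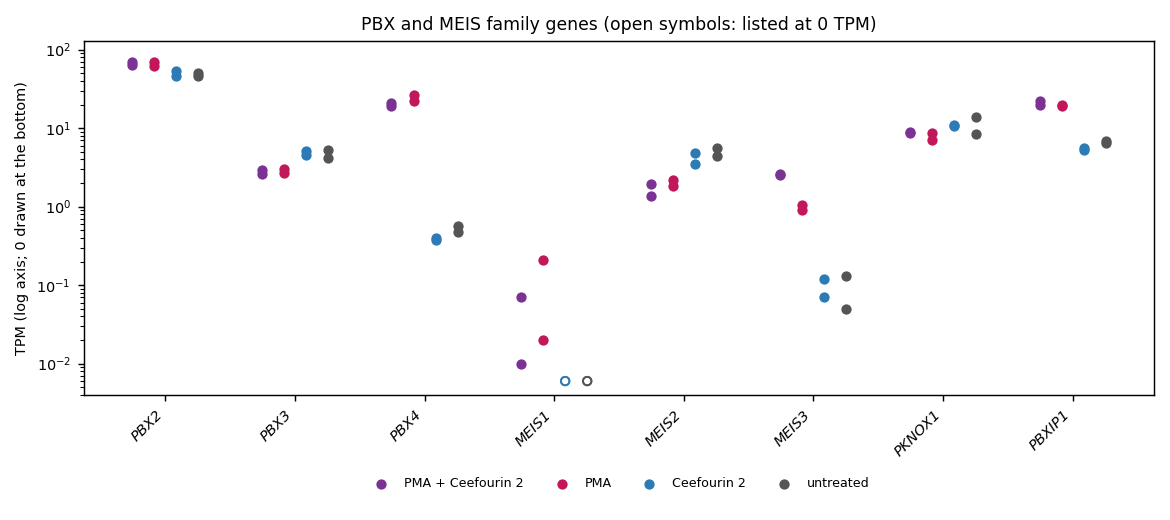
TPM on a log axis for PBX and MEIS family genes with PKNOX1 and PBXIP1, 1 point per library in the 4 groups, with open symbols for values of 0. PBX2, PBX4, MEIS3 and PBXIP1 are higher and PBX3 and MEIS2 lower in every library with PMA, and MEIS1 is listed at 0 in the libraries without PMA.

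Among regulators of the HOXA cluster, more genes were lower than higher after PMA. The KMT2A and menin complexes write active marks at HOXA genes, the DOT1L complex keeps them transcribed, and polycomb proteins silence them. Of 19 tested activators, 10 were lower and 3 higher in PMA against untreated cells, with a median of -0.30, and the counts were the same with the inhibitor. These are 52.6% lower and 15.8% higher, beside 25.7% and 27.9% of all tested genes in PMA against untreated cells. NPM1, a nucleolar protein whose mutation in leukaemia goes with high HOXA levels, fell by log2 1.01 and WDR5, a core subunit of the KMT2 complexes, by 0.95. AFF1 and AFF4, scaffolds of the super elongation complex, rose by 1.09 and 0.98. DOT1L rose by 1.20, KMT2A fell by 0.40 and MEN1 was not called (-0.30, edgeR adjusted p = 0.0867), 3 genes named after their values were seen. Of 30 tested genes listed under polycomb, which include KDM6A and KDM6B, the demethylases that remove the polycomb mark, 13 were lower and 6 higher (43.3% and 20%), with a median of -0.20. The methyltransferase EZH2 fell by 1.04 and PHF19, which guides it to chromatin, by 0.73, while KDM6B, counted among the 6, rose by 1.35 and PHF1, another guide of EZH2, by 0.99. The list medians come from edgeR, where the median over all tested genes in PMA against untreated cells was -0.002. With limma on log2(TPM + 1), without TMM scaling, that median was -0.14. The choice of scaling thus matters for list medians of this size.

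Genes reported elsewhere as targets of HOXA9 and MEIS1 did not move as a block. Of 14 tested, 6 were lower and 2 higher in PMA against untreated cells, with a median of -0.20, and 5 were lower and 2 higher with the inhibitor. MYC had 352 and 348 TPM in PMA against 961 and 784 TPM in untreated cells (log2 fold change -1.09), and ERG fell by 0.97. ID2 rose by 2.98 and LMO2 by 0.95. Of 15 tested stem and progenitor genes, 4 were higher, with TAL1 at 1.09 and RUNX1 at 0.77, and 2 were lower, with MSI2 at -0.75 and ETV6 at -0.51. These are 26.7% higher and 13.3% lower, and the reported targets had 14.3% higher and 42.9% lower. Of all tested genes, 27.9% were higher and 25.7% lower in PMA against untreated cells. These lists were compiled with earlier results of these data known.

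Ceefourin 2 moved few genes of the lists of HOX, TALE, regulator, target and stem cell genes. In PMA plus Ceefourin 2 against PMA, the polycomb gene PHC2 rose by log2 0.79 and the reported target SYK fell by 0.71. KIT, the stem cell factor receptor, rose by 2.52, with 54.9 and 47.4 TPM with PMA plus Ceefourin 2 against 8.74 and 8.61 TPM with PMA. In Ceefourin 2 against untreated cells KIT rose by 2.33 and CD34 fell by 1.63. The 2 KIT results share no library. The erythroid markers moved more widely: 9 of 11 fell in Ceefourin 2 against untreated cells, with a median of -1.31 beside 0.722% of all tested genes lower. Their median was -0.35 in PMA plus Ceefourin 2 against PMA. In Ceefourin 2 against untreated cells GYPB, a glycophorin of the red cell surface, fell by log2 1.31 and HBB, the adult beta globin gene, by 2.08, and the part of this in the members' values was not tested.

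Genes whose pattern over the libraries was most like that of a member were also listed. The libraries fall into those with and those without PMA, which sets most of each pattern. Among 9991 protein-coding genes with at least 5 CPM, TRIM7, DPYSL2, SPIN4, LRP4 and ADGRA3 had the pattern most like HOXA9, with a root mean square difference of 0.088 to 0.128 log2 units over 8 libraries. Their Pearson's r was 0.993 to 0.998. The genes most like PBX3 were NOL9, NF2, CEP85, THOC1 and CSTF2, with differences of 0.032 to 0.045 and r of 0.988 to 0.997. No such search was made for MEIS1, which was not tested.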

How the data were processed

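Poly(A) RNA was sequenced from both ends in stranded libraries of MEG-01 cells, per the labels' protocols. Per the submitters' processing notes, the authors aligned reads with STAR 2.7 to hg38 and quantified them with RSEM 1.3.1. Which annotation release they used is not stated in these sources. The authors deposited expected counts per gene, not normalized, and TPM values, which RSEM scales to the same sum in every library. Per library, 7.05% to 7.83% of genes had a fractional expected count (tolerance 1e-06), and all were rounded.

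The tests were run with edgeR 4.0.16 under R 4.3.3. Genes kept by filterByExpr (minimum count 10) numbered 17314. TMM factors were 0.92 to 1.083. Quasi-likelihood tests used a single model of the 8 libraries with group means, with 4 residual degrees of freedom and 3.95 added by edgeR, and a common coefficient of variation of 13.6%. PMA was set against untreated cells, and PMA plus Ceefourin 2 against Ceefourin 2. Ceefourin 2 was set against untreated cells, PMA plus Ceefourin 2 against PMA, and the interaction was tested. The 2 comparisons of PMA share no library, but share the estimate of spread. Adjusted p is Benjamini-Hochberg over all tested genes, and a gene was called, and said to rise or fall, below 0.05. Levels of 1 gene are CPM with TMM scaling, and levels between genes are TPM. SE is the size of the log2 fold change over the root of edgeR's F. DESeq2 1.42.0 and limma 3.58.1 were used as alternatives.

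The members and the 18 gene lists (211 symbols) were chosen with earlier results of these data known. All members were named, with up to 4 called genes per list by smallest p, and HOX and TALE genes of at least 1 TPM. Positions came from GENCODE 29 by identifier and promoters from RefSeq. The scripts were tested on simulated data. Libraries with the same replicate number deviated together in all 6 pairs of groups (Pearson's r 0.137 to 0.363 across genes), although no label says what the numbers mark. They were used to pair the libraries only in an alternative fit, with the replicate number as a block. Where no block is named, SE, intervals and adjusted p come from models that ignore this pairing. With the replicate number as a block, 1482 genes in place of 317 were called in PMA plus Ceefourin 2 against PMA, 1430 in place of 291 in Ceefourin 2 against untreated, and 247 in place of 2 in the interaction. Some genes of these families are not reported here.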

Additional observations from a re-analysis of the deposited data

How the results depend on the processing

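The number of members called was 7 in PMA against untreated cells and 5 to 7 over 17 alternatives, and 6 in PMA plus Ceefourin 2 against Ceefourin 2 and 5 to 7. Leaving out 1 library gave 5 to 7 in both. It was 0 in the other 3 contrasts under every alternative run. No member reversed a called direction. Without replicate 1 of both PMA groups, whose mitochondrial share was highest, 6 and 5 members were called, with PBX3 lost at adjusted p = 0.106 and 0.0513. With the replicate block, 7 and 6 members were called and 0 in the other contrasts, so the block changed no member's call. HOXA3 left the tests under a minimum of 1 CPM. It gained a call in PMA plus Ceefourin 2 against Ceefourin 2 with only the 2 groups compared (adjusted p = 0.0476) and without either PMA library (0.0362 and 0.036). Without PMA replicate 1 the HOXA3 count in PMA was 0, so its fitted fold change there is no measure of size.

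Counts over all genes moved by more than 1.5 times for Ceefourin 2. In PMA plus Ceefourin 2 against PMA, 317 became 799 with DESeq2, 1211 without a filter, 81 with limma on log2(TPM + 0.1), 19 to 317 with 1 library left out and 1 without both replicate 1 libraries; in Ceefourin 2 against untreated cells, 291 became 837, 1174, 86, 31 to 186 and 40, and also 173 with limma on log2(TPM + 1) and 36 with only the 2 groups. The interaction count of 2 became 210 with DESeq2 and 414 without a filter. Counts of 0 to 12 for HOXA3, HOXA5, HOXA6 and MEIS1 in libraries with PMA limit what can be said of Ceefourin 2 there.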
